A study of Marchantia polymorpha with 9 samples.

Results

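WRKY transcription factor genes and NBS-LRR immune receptor genes of the liverwort Marchantia polymorpha are described here through 5 of the 20574 genes listed in the deposited tables. They are the receptor genes MpNBS-LRR1 (Mp1g10650), MpNBS-LRR21 (Mp7g19400) and MpNBS-LRR13 (Mp4g22030) and the transcription factor genes MpWRKY14 (Mp6g16800) and MpWRKY8 (Mp2g20960). They were picked by name with earlier results of the same libraries in view, so their differences between groups are given as descriptions with no test, and tests are given only for other genes. All 5 had enough reads to enter the fit across genes.

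The study compared the wild type BoGa with Mpb-gata1-1 and Mpb-gata1-2, mutants of MpB-GATA1, a GATA-type zinc finger transcription factor. Each group had 3 libraries of messenger RNA, and each library was made from 3 whole thallus plants pooled together. All plants were 3 weeks old and untreated, and grew on 1/2 Gamborg's B5 medium at 22 °C with 16 h of light and 8 h of dark. The labels give no further transgene or agent in any group, and they do not describe the lesion of either allele or say how many independent lines stand behind it. They also do not say whether the pools came from separate cultures, so p-values measure the spread between these libraries only.

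NBS-LRR proteins, also called NLRs, carry a nucleotide-binding site and leucine-rich repeats, and in flowering plants they detect pathogen effectors inside the cell and switch on defence. Some liverwort NLRs carry a protein kinase or hydrolase domain at the front. WRKY proteins are plant transcription factors named after a stretch of amino acids in their DNA-binding domain, bind W-box elements in promoters, and in flowering plants act widely in defence and stress responses.

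The libraries held between 24823337 and 44133919 gene reads each, of which 98.2% to 98.3% were unique to a gene. The groups differed in the level of 22 genes of the V chromosome, the chromosome that male plants carry. Relative to the mean of Mpb-gata1-2, this V level was 0.368 to 0.682 in the BoGa libraries, 0.0172 to 0.0253 for Mpb-gata1-1 and 0.946 to 1.03 for Mpb-gata1-2. The V level therefore separated all 3 groups without overlap. An effect of the allele and one that goes with the V chromosome cannot be told apart, either between the mutants or between a mutant and BoGa. The V level hardly varied within a mutant, so a fit with it as a covariate draws its slope mainly from the 3 BoGa libraries. Lost calls or turned signs in such a fit are no result about the V chromosome. Genes of the U chromosome, which female plants carry, were not analysed here. MpGATA4, which knowledge of the study gives as MpB-GATA1, averaged 151 ± 3.37 CPM (gene reads scaled to library size, SD, n = 3) over the BoGa libraries, and the mutants averaged 252 ± 5.07 and 283 ± 3.64. A total over the gene does not show a lesion. Summed CPM of 4 gemma cup and gemma markers was 78.0 to 100.2 for BoGa, 102 to 108 for Mpb-gata1-1 and 123 to 130 for Mpb-gata1-2. That of 5 germ cell markers was 203 to 218, 155 to 164 and 188 to 195, in the same order of groups, with the germ cell regulator gene MpBNB at 0 reads. Single markers did not all move with their sum. The log2 difference from BoGa ran from -0.28 to 1.56 over the gemma markers in Mpb-gata1-1 and from -0.40 to 2.31 in Mpb-gata1-2. Over the 3 germ cell markers tested it ran from -3.76 to 0.24 and from -0.17 to 0.61. Summed rhizoid (2 genes), oil body (4 genes) and air pore (1 gene) markers lay at 26.5 to 28.4, 23.7 to 29.9 and 84.0 to 102 CPM in BoGa and at 29.0 to 37.9, 25.6 to 30.3 and 84.9 to 95.5 CPM across the mutants. The part of any of these in the results below was not tested. In whole plants, fewer cells of a type and less RNA per cell cannot be told apart.

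Of the 3 chosen receptor genes, MpNBS-LRR1 had higher levels in both mutants and the highest in Mpb-gata1-2. It lies on chromosome 1 at 10949694 to 10954488 on the minus strand, in the coordinates of the deposited tables, whose genome build is not given in the sources used here. All of its reads were unique to it. In BoGa it was at 49.8, 48.1 and 46.7 CPM, in Mpb-gata1-1 at 78.1, 74.4 and 84.7 CPM, and in Mpb-gata1-2 at 169, 155 and 165 CPM. The 3 groups did not overlap, and every Mpb-gata1-2 library lay above every Mpb-gata1-1 library. Such a lack of overlap was common. Over the other tested genes it held for 53.1% in Mpb-gata1-1 against BoGa, 55.6% in Mpb-gata1-2 against BoGa and 49.1% between the mutants. That background applies to each of the 5 chosen genes. The means of MpNBS-LRR1 were 48.2 ± 1.58, 79.1 ± 5.21 and 163 ± 7.26 CPM (SD, n = 3). The fitted difference from BoGa was 1.64-fold in Mpb-gata1-1 (log2 0.72, SE 0.06) and 3.39-fold in Mpb-gata1-2 (log2 1.76, SE 0.06), and the mutants differed by 2.06-fold.

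Per gene length, MpNBS-LRR1 stood at different places within the family. In TPM, the authors' length-scaled transcript level over a gene length that includes introns, it was the fifth of 21 NBS-LRR genes in BoGa at 29.8 ± 1.62, within its SD of MpNBS-LRR12 at 28.2 ± 0.379. It was the second in Mpb-gata1-1 at 52.1 ± 3.35, where MpNBS-LRR8 at 49.4 ± 4.81 differed by less than the spread. In Mpb-gata1-2 it was the first at 108 ± 6.85, above MpNBS-LRR22 at 87.6 ± 7.03 by more than either SD. Its share of the TPM summed over the family was 7.88% ± 0.0984 for BoGa, 14.6% ± 1.53 for Mpb-gata1-1 and 23.0% ± 0.147 for Mpb-gata1-2.

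MpNBS-LRR21 set the mutants apart in opposite directions. This receptor gene lies on chromosome 7 at 21631965 to 21637482 on the minus strand, and 99.8% of its reads were unique. It was at 32.7, 31.6 and 28.3 CPM in BoGa, at 34.8, 36.5 and 36.6 CPM in Mpb-gata1-1, and at 7.31, 8.38 and 7.96 CPM in Mpb-gata1-2. All Mpb-gata1-1 libraries lay above all BoGa libraries and all Mpb-gata1-2 libraries far below them. The means were 30.9 ± 2.29, 36.0 ± 0.995 and 7.88 ± 0.539 CPM. The level in Mpb-gata1-2 was 3.91-fold lower than in BoGa (log2 -1.97, SE 0.08) and 4.55-fold lower than in Mpb-gata1-1. The Mpb-gata1-1 level was 1.17-fold higher than in BoGa (log2 0.22, SE 0.07), and this small difference turned to a log2 value of -0.15 when the V level was a covariate.

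In TPM, MpNBS-LRR21 was the ninth of the family in BoGa at 16.6 ± 1.53, with MpNBS-LRR18 at 14.6 ± 2.55 closer than the latter's SD. It was the seventh in Mpb-gata1-1 at 20.6 ± 1.04, with MpNBS-LRR7 above it at 22.5 ± 2.96 and closer than the SD of MpNBS-LRR7, and the twelfth in Mpb-gata1-2 at 4.51 ± 0.216. Its share of the summed family TPM was 4.38% ± 0.252 for BoGa, 5.76% ± 0.280 for Mpb-gata1-1 and 0.968% ± 0.107 for Mpb-gata1-2.

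MpNBS-LRR13 was lower in both mutants. It lies on chromosome 4 at 24690890 to 24696308 on the minus strand, and only 39.0% of its reads were unique to it, so the level is less certain than those of the other receptor genes. Total reads gave 52.3, 54.6 and 46.1 CPM in BoGa, 18.5, 20.8 and 19.0 CPM in Mpb-gata1-1, and 27.3, 26.2 and 31.9 CPM in Mpb-gata1-2. The groups did not overlap, with Mpb-gata1-1 lowest and Mpb-gata1-2 between. The means were 51.0 ± 4.42, 19.4 ± 1.21 and 28.5 ± 2.99 CPM, which is 2.62-fold lower in Mpb-gata1-1 (log2 -1.39, SE 0.09) and 1.79-fold lower in Mpb-gata1-2 (log2 -0.84, SE 0.09). In TPM it was the seventh of the family in BoGa at 27.9 ± 2.68, the tenth in Mpb-gata1-1 at 11.4 ± 0.975 and the ninth in Mpb-gata1-2 at 16.6 ± 1.76. Next to it in that order, MpNBS-LRR12 in BoGa and MpNBS-LRR18 in Mpb-gata1-2 differed from it by less than the spread.

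Unique reads of MpNBS-LRR13 alone gave the same order of groups. They were at 18.8, 22.5 and 17.5 CPM in BoGa, 6.996, 8.42 and 6.95 CPM in Mpb-gata1-1, and 11.5, 10.7 and 12.7 CPM in Mpb-gata1-2, again without overlap. The fitted log2 differences on unique reads were -1.39 (SE 0.12) and -0.75 (SE 0.12). The reads it shared with other places averaged 31.4, 11.99 and 16.8 CPM, with log2 ratios of -1.39 and -0.90 to BoGa. The share of unique reads stayed between 38.2% and 40.8% in the groups. Which gene the other reads also fit is not given in the deposited tables.

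**Figure D1:**
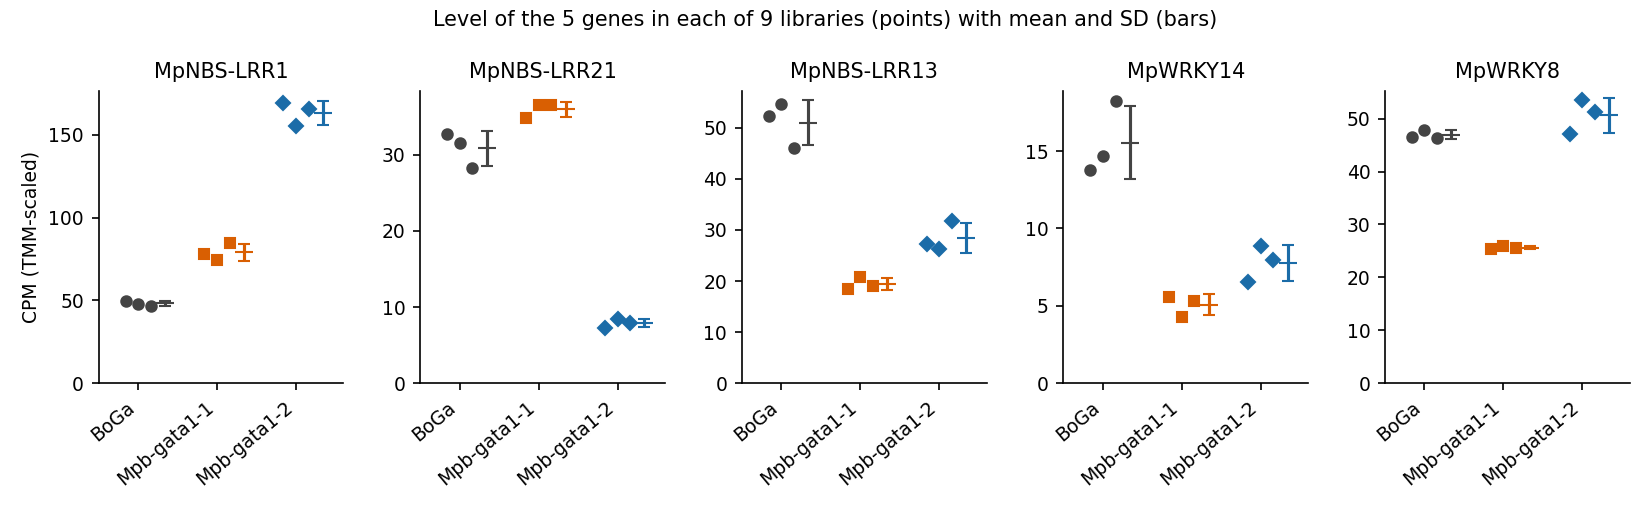
TMM-scaled CPM (y axis, from 0, a scale for each gene) of the 5 genes in the 3 libraries of each group (points), with the mean and SD beside them. MpNBS-LRR1 averages 48.2 CPM for BoGa and 163 for Mpb-gata1-2, while MpNBS-LRR21 is lowest for Mpb-gata1-2, at 7.88, and MpWRKY8 for Mpb-gata1-1, at 25.6.

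MpWRKY14 was lower in both mutants. It lies on chromosome 6 at 18311016 to 18313165 on the plus strand, and 99.9% of its reads were unique. It was at 13.7, 14.7 and 18.2 CPM in BoGa, 5.60, 4.30 and 5.32 CPM in Mpb-gata1-1, and 6.56, 8.84 and 7.93 CPM in Mpb-gata1-2. No group overlapped another, and both mutants lay below BoGa. The means were 15.5 ± 2.36, 5.07 ± 0.685 and 7.78 ± 1.14 CPM. The level was 3.07-fold lower in Mpb-gata1-1 (log2 -1.62, SE 0.15) and 1.99-fold lower in Mpb-gata1-2 (log2 -0.995, SE 0.14). The difference between the mutants was 1.54-fold (log2 0.62, SE 0.15) and turned to -0.30 with the V level as a covariate. In TPM, MpWRKY14 was the sixth of 14 WRKY genes in BoGa, at 21.4 ± 2.90, and the eighth in both mutants, at 7.44 ± 0.849 and 11.4 ± 1.45.

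MpWRKY8 was lower in Mpb-gata1-1 and near the wild-type level in Mpb-gata1-2. It lies on chromosome 2 at 23161597 to 23166044 on the plus strand. It was at 46.6, 47.9 and 46.3 CPM in BoGa, 25.4, 25.9 and 25.6 CPM in Mpb-gata1-1, and 47.0, 53.5 and 51.2 CPM in Mpb-gata1-2. The Mpb-gata1-1 libraries lay below all others, and the lowest Mpb-gata1-2 library lay within the BoGa range. The means were 46.9 ± 0.840, 25.6 ± 0.225 and 50.6 ± 3.30 CPM. The level was 1.83-fold lower than BoGa in Mpb-gata1-1 (log2 -0.87, SE 0.06), 1.08-fold higher in Mpb-gata1-2 (log2 0.11, SE 0.06), and 1.98-fold higher in Mpb-gata1-2 than in Mpb-gata1-1. In TPM the gene was the fourth of the family in BoGa at 31.2 ± 0.790 and the fifth in the mutants at 18.2 ± 0.607 and 35.9 ± 1.61. MpWRKY2 stood beside it in BoGa at 28.5 ± 4.09 and in Mpb-gata1-2 at 36.2 ± 1.30, both within the spread.

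Unique reads made up 49.9% of the MpWRKY8 reads. Over 2430 of its 4448 bp it overlaps Mp2g20970, a gene on the opposite strand that had 3 to 13 reads in a library. Use of strand in the counting is not given in the sources used here, so reads of the overlapping genes cannot be told apart. On unique reads MpWRKY8 was at 23.7, 22.2 and 22.6 CPM in BoGa, 11.8, 13.9 and 12.8 CPM in Mpb-gata1-1, and 25.8, 26.8 and 25.1 CPM in Mpb-gata1-2. The 3 groups did not overlap on this count, so the Mpb-gata1-2 libraries stood just above BoGa (log2 0.18, SE 0.07), against an overlap on total reads. The Mpb-gata1-1 difference was -0.83 (SE 0.07).

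**Figure D2:**
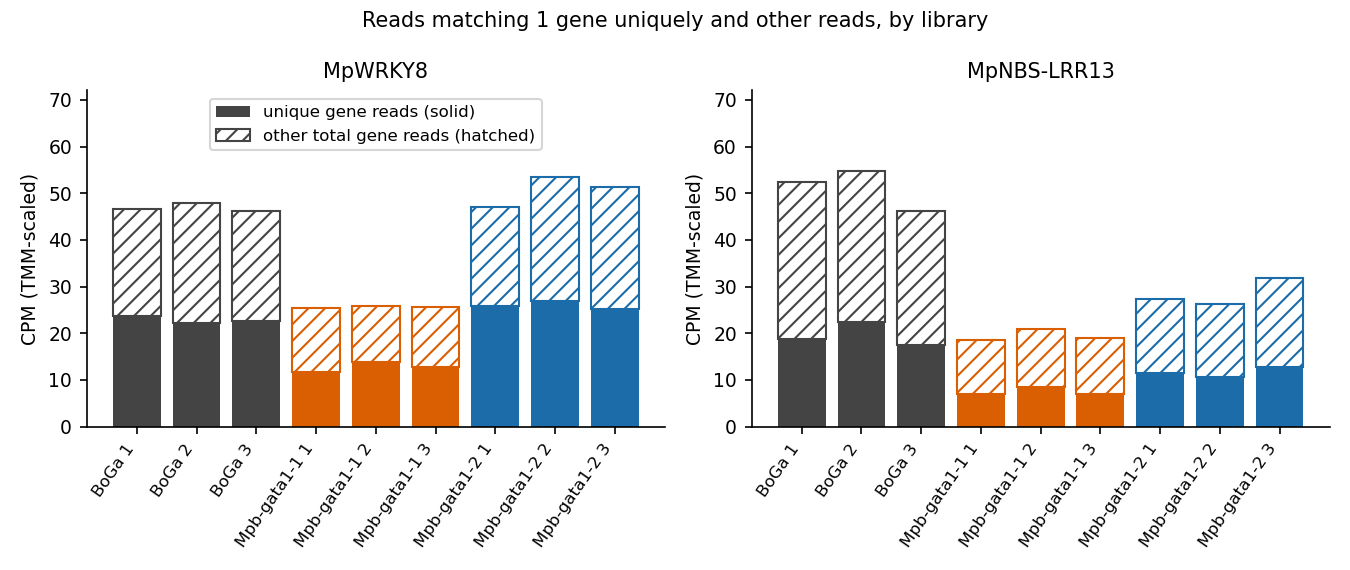
Reads of MpWRKY8 and MpNBS-LRR13 by library in TMM-scaled CPM (bars from 0), split into reads unique to the gene (solid) and the remaining total gene reads (hatched). Both portions are lower in the Mpb-gata1-1 libraries, and the unique portion stays near 49.9% of the reads for MpWRKY8 and 39.0% for MpNBS-LRR13.

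Within the NBS-LRR family the 3 receptor genes stood among larger and smaller differences of both signs. In Mpb-gata1-1 against BoGa, 2 of the other 18 genes rose and 7 fell (edgeR quasi-likelihood test, adjusted p under 0.05 over all genes), which is 50.0% against 46.0% of all 14667 genes tested, 23.0% in each direction. Their median log2 difference was -0.29, against 0.00 over all genes, and libraries of the groups did not overlap for 10 of the 18 (55.6% against 53.1% of all genes). MpNBS-LRR20 fell most, from 10.5 ± 3.34 to 1.41 ± 0.253 CPM (log2 -2.92, edgeR adjusted p = 1.13e-05). MpNBS-LRR5, listed as a coiled-coil type receptor gene and with 84.4% unique reads, fell from 3.11 ± 0.0257 to 1.26 ± 0.0814 CPM (log2 -1.31, edgeR adjusted p = 6.33e-05). MpNBS-LRR14 (log2 -1.23) and MpNBS-LRR12 (log2 -0.88) also fell, and MpNBS-LRR15 rose from 7.61 ± 1.13 to 11.9 ± 1.08 CPM (log2 0.65, edgeR adjusted p = 0.00136). The other gene that rose, named after its values were seen, was MpNBS-LRR17 (log2 0.37, edgeR adjusted p = 0.0361), whose groups overlapped.

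In Mpb-gata1-2 against BoGa, 4 of the other 18 NBS-LRR genes rose and 6 fell, or 55.6% against 46.4% of all genes (21.7% higher and 24.7% lower). The median log2 difference was -0.00, against -0.02 over all genes, and the groups did not overlap for 10 of the 18, or 55.6%, the same share as over all genes. MpNBS-LRR11 fell from 5.34 ± 2.38 to 0.587 ± 0.186 CPM (log2 -3.14, edgeR adjusted p = 0.000112). MpNBS-LRR20 fell to 4.76 ± 0.459 CPM (log2 -1.14) and MpNBS-LRR14 to 2.47 ± 0.263 CPM (log2 -0.76). MpNBS-LRR9 rose from 21.7 ± 1.35 to 49.7 ± 4.03 CPM (log2 1.20, edgeR adjusted p = 3.78e-06) and MpNBS-LRR10 from 6.71 ± 0.823 to 11.8 ± 1.30 CPM (log2 0.82, edgeR adjusted p = 0.000339). MpNBS-LRR22 and MpNBS-LRR2 also rose (log2 0.30 and 0.16, edgeR adjusted p = 0.0151 and 0.0334).

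Between the mutants, 10 of the other 18 NBS-LRR genes were higher in Mpb-gata1-2 and 3 were lower by the edgeR test, or 72.2% against 30.9% of all genes (14.9% higher and 16.0% lower). Their median log2 difference was 0.41, against 0.00 over all genes. Libraries of the mutants did not overlap for 14 of the 18, 11 higher and 3 lower in Mpb-gata1-2, or 77.8% against 49.1% of all genes. MpNBS-LRR11 (log2 -2.37), MpNBS-LRR20 (log2 1.78) and MpNBS-LRR9 (log2 1.59) differed most. MpNBS-LRR1 at 1.05 and MpNBS-LRR13 at 0.55 lay on the side of the larger count and MpNBS-LRR21 at -2.19 on the other. With the V level as a covariate, edgeR called 0 of the 18 in this contrast (5 at an unadjusted p under 0.05) and 4 in each contrast with BoGa, and MpNBS-LRR20 turned to -0.87 between the mutants. That fit cannot separate the V level from the group. With a minimum of 2-fold, 3 of the 18 passed in Mpb-gata1-1, 3 in Mpb-gata1-2 and 5 between the mutants, where 8.38%, 8.84% and 7.3% of all genes did.

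**Figure D3:**
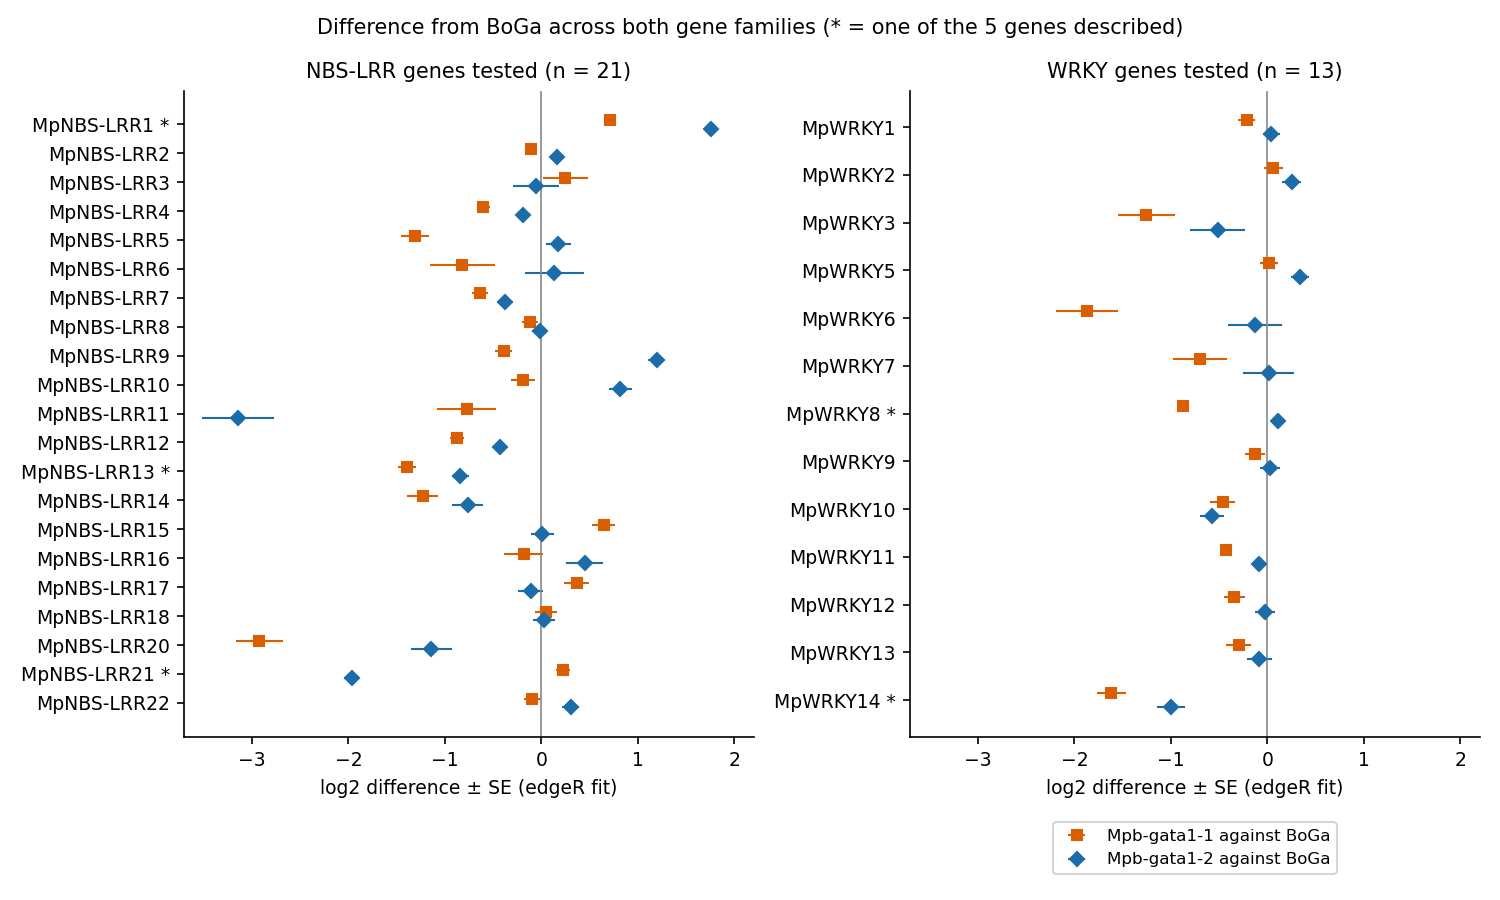
Fitted log2 difference from BoGa with its SE (x axis) for the 21 NBS-LRR genes and the 13 WRKY genes tested, in Mpb-gata1-1 (squares) and Mpb-gata1-2 (diamonds). Most WRKY squares lie left of their diamonds, and the NBS-LRR genes spread from -3.14 to 1.76 in Mpb-gata1-2.

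Summed TPM of the 21 NBS-LRR genes was 378 ± 16.8 for BoGa, 359 ± 34.7 for Mpb-gata1-1 and 468 ± 29.0 for Mpb-gata1-2. Without the 3 chosen genes it was 304 ± 12.6, 275 ± 32.5 and 339 ± 21.5. MpNBS-LRR22 was the most abundant in BoGa and Mpb-gata1-1, at 66.6 ± 8.73 and 66.5 ± 6.90 TPM.

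**Figure D4:**
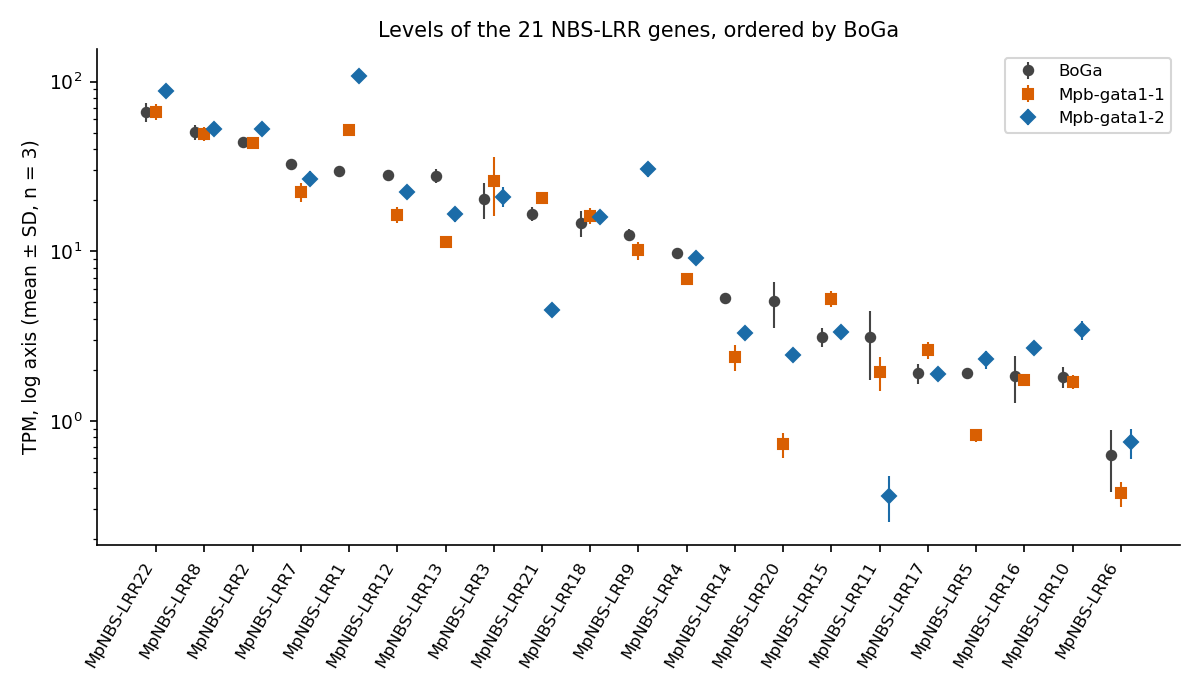
Mean TPM with SD (y axis, log scale, n = 3) of the 21 NBS-LRR genes in BoGa (circles), Mpb-gata1-1 (squares) and Mpb-gata1-2 (diamonds), ordered by BoGa. For BoGa and Mpb-gata1-2, MpNBS-LRR1 is at 29.8 and 108 TPM and MpNBS-LRR21 at 16.6 and 4.51 TPM, while the 3 means of MpNBS-LRR8 lie between 49.4 and 52.9.

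Some receptor genes of like direction lie close together. MpNBS-LRR12, at 24674042 to 24681430 on chromosome 4, lies 9.46 kb from MpNBS-LRR13 on the same strand, and MpNBS-LRR14 follows 149 kb further on. MpNBS-LRR12 fell in both mutants, from 70.5 ± 2.45 CPM to 38.3 ± 3.18 and 52.3 ± 3.71 (log2 -0.88 and -0.43, edgeR adjusted p = 1.14e-05 and 0.000875). MpNBS-LRR12, MpNBS-LRR13 and MpNBS-LRR14 thus shared the order BoGa, Mpb-gata1-2, Mpb-gata1-1 in their means. MpNBS-LRR9 and MpNBS-LRR10, which rose in Mpb-gata1-2, lie 10.9 kb apart on the same chromosome on opposite strands. MpNBS-LRR11, 718 kb beyond, fell in that mutant. MpNBS-LRR1 and MpNBS-LRR21 have no other NBS-LRR gene within 10150.8 and 16139.4 kb. No test of clustering was made.

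In the WRKY family, the genes that passed in Mpb-gata1-1 had the same sign as MpWRKY14 and MpWRKY8. Of the other 11 WRKY genes tested, none rose and 5 fell, or 45.5% against 46.0% of all genes in either direction, so the share was at the background, while the background of lower genes alone was 23.0%. The median log2 difference was -0.34, and 7 of the 11 lay below BoGa in every library (63.6% not overlapping against 53.1% of all genes). MpWRKY11, by far the most abundant WRKY gene, fell from 635 ± 48.9 to 471 ± 6.04 CPM (log2 -0.43, edgeR adjusted p = 0.000423). MpWRKY3 fell from 5.71 ± 2.29 to 2.37 ± 0.501 CPM (log2 -1.26, edgeR adjusted p = 0.00627) and MpWRKY10 from 7.72 ± 1.18 to 5.63 ± 0.540 CPM (log2 -0.46, edgeR adjusted p = 0.0131). MpWRKY12 fell from 19.9 ± 2.96 to 15.7 ± 1.26 CPM (log2 -0.34, edgeR adjusted p = 0.0219), but did not pass without BoGa replicate 2 or Mpb-gata1-1 replicate 1 or 2 (0.0887, 0.0645 and 0.0749). The remaining call, named after its values were seen, was MpWRKY6 at a low level, from 1.32 ± 0.438 to 0.359 ± 0.0949 CPM (log2 -1.87, edgeR adjusted p = 0.000996). Without BoGa replicate 1, 8 of the 11 passed, all lower, and without BoGa replicate 3, 5 were lower and 1 was higher. With the V level as a covariate, 1 of the 11 passed, and it was higher. MpWRKY3 and MpWRKY10 were then at log2 0.40 and 0.14.

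In Mpb-gata1-2 against BoGa, where MpWRKY14 was lower and MpWRKY8 near the wild type, 1 of the other 11 WRKY genes rose and 1 fell, or 18.2% against 46.4% of all genes. MpWRKY10 fell to 5.19 ± 0.241 CPM (log2 -0.57, edgeR adjusted p = 0.00432). MpWRKY5 rose from 68.8 ± 8.58 to 86.9 ± 6.85 CPM (log2 0.34, edgeR adjusted p = 0.0135), but did not pass without Mpb-gata1-2 replicate 1 (0.0560). The median log2 difference was -0.02, and the groups did not overlap for 18.2% of the 11, against 55.6% of all genes. On log2(TPM + 1), limma called 3 of the 11.

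Between the mutants, 4 of the other 11 WRKY genes were higher in Mpb-gata1-2 and none lower by the edgeR test, or 36.4% against 30.9% of all genes. The median log2 difference was 0.32. MpWRKY11 (log2 0.34, edgeR adjusted p = 0.00254) was among them, as were MpWRKY6, MpWRKY12 and MpWRKY5. MpWRKY12 did not pass without any one of Mpb-gata1-1 replicates 1 and 2 or any Mpb-gata1-2 library, nor MpWRKY5 without replicate 1 or 3 of either mutant. The Mpb-gata1-2 libraries lay above all Mpb-gata1-1 libraries for 9 of the 11 genes and below for none, or 81.8% not overlapping against 49.1% of all genes. MpWRKY14 and MpWRKY8 had the same sign, at 0.62 and 0.98. Without BoGa replicate 3, or with only the mutants in the fit, 8 of the 11 passed, and 2 passed without Mpb-gata1-1 replicate 1 or Mpb-gata1-2 replicate 1 or 3. With the V level as a covariate, in a fit that cannot separate it from the group, edgeR called 0 of the 11 (4 at an unadjusted p under 0.05). MpWRKY11 and MpWRKY12 turned to -0.11 and -0.16.

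MpWRKY4 had 0 reads in every library, which allows up to 3 reads or 0.0680 to 0.121 CPM in a library, for counting error only. In TPM, MpWRKY11 was the first of the family in each group, at 500 ± 33.1, 397 ± 13.6 and 502 ± 15.3. Summed TPM of the 14 genes was 712 ± 42.4, 577 ± 21.8 and 735 ± 18.2, of which MpWRKY14 made up 2.99% ± 0.235, 1.29% ± 0.192 and 1.55% ± 0.178. The share of MpWRKY8 was 4.40% ± 0.356, 3.16% ± 0.0200 and 4.88% ± 0.165.

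Of 9 genes tested among the 5 on either side of MpNBS-LRR1, 1 rose and 3 fell in Mpb-gata1-1, and none rose and 5 fell in Mpb-gata1-2. Over all genes, 46.0% and 46.4% passed, and with so few neighbours such counts are given as a description. Mp1g10630 was above every BoGa library in both mutants, at 76.6 CPM against 92.9 and 83.9, and Mp1g10700 in Mpb-gata1-2, at 0.876 CPM against 1.32. These were picked after their values were seen. Mp1g10640 averaged 32.8 ± 5.33 CPM over BoGa, 36.7 ± 1.16 over Mpb-gata1-1 and 17.1 ± 0.744 over Mpb-gata1-2, where it fell (log2 -0.94, edgeR adjusted p = 4.97e-05). Mp1g10660, which starts 2091 bp beyond the receptor gene, fell in both mutants (log2 -0.61 and -0.50, edgeR adjusted p = 0.000780 and 0.00254).

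MpNBS-LRR21 stands beside the peroxidase genes MpPOD159, MpPOD160 and MpPOD161. Of its 9 tested neighbours, 2 rose and 5 fell in Mpb-gata1-1, and 3 rose and 3 fell in Mpb-gata1-2. Over all genes, 46.0% and 46.4% passed in either direction. MpPOD161, which lies 12999 bp away, averaged 9.59 ± 1.28 CPM over BoGa, 1.97 ± 0.334 over Mpb-gata1-1 and 7.70 ± 0.562 over Mpb-gata1-2. It fell in Mpb-gata1-1 (log2 -2.30, edgeR adjusted p = 1.92e-06), the mutant in which MpNBS-LRR21 was highest. MpPOD160 fell from 4.42 ± 0.703 to 1.41 ± 0.102 CPM in Mpb-gata1-1 (log2 -1.64, edgeR adjusted p = 9.11e-05). In Mpb-gata1-2 it had 1 read over 3 libraries against 449 in BoGa, which is 0.235% of the BoGa level with a 95% exact counting interval of 0.00593% to 1.31%. MpPOD160 and MpNBS-LRR21 were both lowest in Mpb-gata1-2, and on the other side Mp7g19410 and Mp7g19420 were at 15.6 and 2.57 CPM in BoGa and at 16.9 and 3.57 CPM in Mpb-gata1-2.

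Beside MpNBS-LRR13, 4 of 9 tested neighbours fell in Mpb-gata1-1 and 1, MpNBS-LRR12, fell in Mpb-gata1-2, against 23.0% and 24.7% of all genes. Of the 4, Mp4g22010 did not pass without BoGa replicate 2 or 3, any Mpb-gata1-1 library or Mpb-gata1-2 replicate 2. The nearest tested genes, Mp4g22020 and Mp4g22050, averaged 0.749 and 11.5 CPM over BoGa, 0.820 and 10.01 over Mpb-gata1-1, and 0.584 and 14.4 over Mpb-gata1-2. Beside MpWRKY8, 4 of 6 tested neighbours fell in each mutant, against the same 23.0% and 24.7% of all genes, and Mp2g20940 differed most in Mpb-gata1-1 (log2 -0.55, edgeR adjusted p = 0.000116). Among them, Mp2g20980 in Mpb-gata1-2 did not pass when any one library other than Mpb-gata1-1 replicate 1 was left out. MpBHLH13 in Mpb-gata1-1 did not pass without BoGa replicate 1 or 2, any Mpb-gata1-1 library or Mpb-gata1-2 replicate 1. Beside MpWRKY14, 8 of 10 neighbours had too few reads to test, among them 4 AP2-like genes with 0 reads in every library. The other 2, Mp6g16830 and Mp6g16840, rose in Mpb-gata1-1 (log2 0.69 and 0.19, edgeR adjusted p = 0.0488 and 0.0423), where MpWRKY14 was lower. Mp6g16830 was at a low level, from 0.822 ± 0.159 CPM in BoGa to 1.34 ± 0.310 CPM in Mpb-gata1-1. Mp6g16830 did not pass without BoGa replicate 1 or 3, Mpb-gata1-1 replicate 1 or 2 or any Mpb-gata1-2 library. The same held for Mp6g16840 without BoGa replicate 1 or 2, Mpb-gata1-1 replicate 1 or 3 or any Mpb-gata1-2 library.

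**Figure D5:**
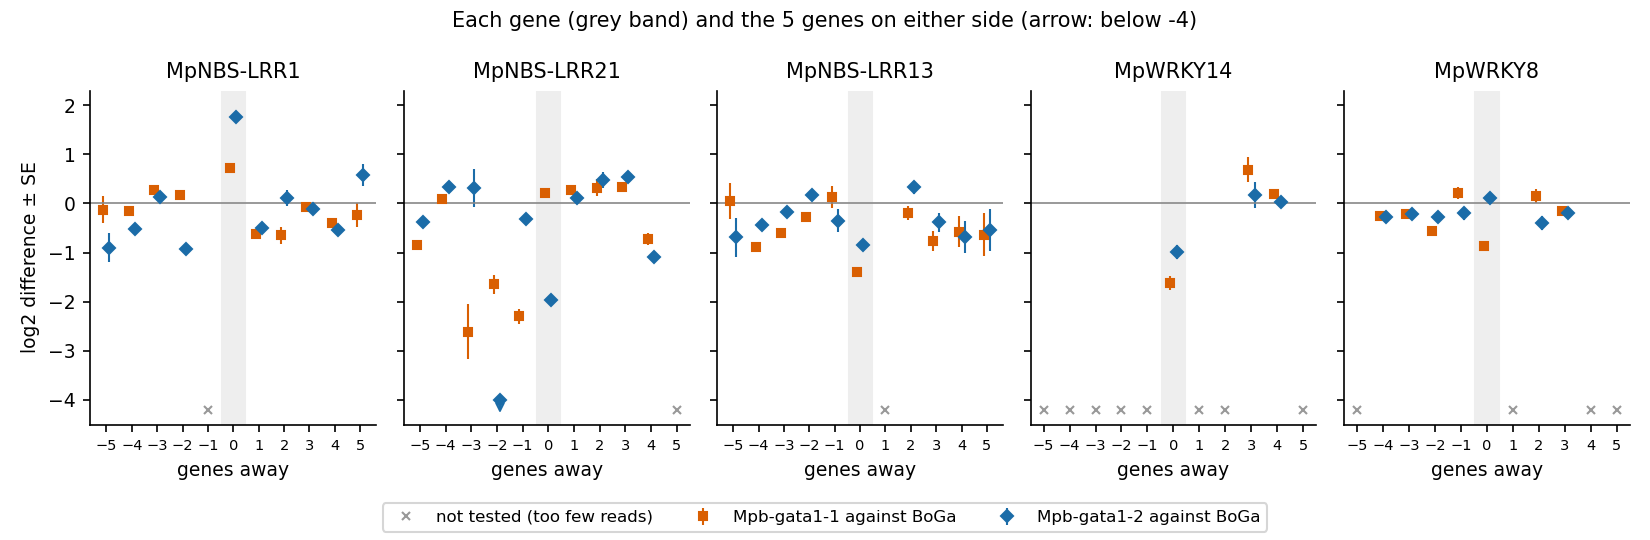
Fitted log2 difference from BoGa with its SE (y axis) of each gene (grey band) and of the 5 genes on either side in order along the chromosome (x axis), in Mpb-gata1-1 (squares) and Mpb-gata1-2 (diamonds). Crosses mark genes with too few reads to test, and the arrow marks MpPOD160, with 1 read in Mpb-gata1-2.

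Likeness of pattern was measured as the root mean square difference of centred log2 CPM over the 9 libraries, with smaller values for more alike genes, against 12985 other tested genes with a mean log2 CPM of at least 0. Among the chosen genes, MpWRKY14 and MpNBS-LRR13 were most alike at 0.258, and MpNBS-LRR1 and MpNBS-LRR21 least at 1.65. Closest to MpWRKY14 among those genes were MpCKX2, named as a cytokinin oxidase gene, at 0.164, Mp3g19610 at 0.167 and Mp5g00680 at 0.177. MpWRKY8 was closest to Mp2g24920 at 0.0551, Mp6g14820 at 0.0695 and Mp7g16620 at 0.0961. For MpNBS-LRR1 they were Mp2g05890 at 0.158, Mp2g04130 at 0.167 and Mp7g10210 at 0.185. For MpNBS-LRR21 they were Mp4g05940 at 0.112, the cytochrome P450 gene MpCYP813-like2 at 0.119 and Mp2g13450 at 0.137, and MpCYP813-like2 was at 30.3, 37.3 and 8.65 CPM in the 3 groups. For MpNBS-LRR13 they were Mp8g18730 at 0.0797, Mp6g03510 at 0.113 and Mp4g03040 at 0.121.

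Other genes of plant immunity were taken from lists by symbol. Of 8 NLR chaperone and signalling genes, 3 rose and 1 fell in Mpb-gata1-1 (50.0% against 46.0% of all genes) and 1 rose and 1 fell in Mpb-gata1-2 (25.0% against 46.4%). The gene of the chaperone HSP90, MpHSP90-4, fell in both mutants, from 358 CPM to 264 and 245 (log2 -0.44 and -0.54, edgeR adjusted p = 0.00143 and 0.000371). MpHSP90-1 rose in Mpb-gata1-1 (log2 0.46, edgeR adjusted p = 0.0121, but -0.33 with the V level as a covariate), and MpHSP90-2 rose in Mpb-gata1-2 (log2 0.20, edgeR adjusted p = 0.0123). In Mpb-gata1-1, MpHSP90-2 passed at 0.0363 but not without BoGa replicate 2 or 3, Mpb-gata1-1 replicate 1 or 3 or Mpb-gata1-2 replicate 2. Pattern receptors sense microbial molecules or the cell wall at the cell surface. Their list took in whole receptor kinase families, so not every gene in it need be such a receptor. Of its 22 tested genes, 6 rose and 4 fell in Mpb-gata1-1 (45.5%, near the background) and 4 rose and 2 fell in Mpb-gata1-2 (27.3%, below it). MpRLK-Pelle_WAK1 fell in both mutants, from 7.13 CPM to 0.458 and 0.275 (log2 -4.004 and -4.73, edgeR adjusted p = 7.59e-06 and 3.43e-06), but none of its reads were unique. MpRLK-Pelle_WAK_LRK10L-12, with 79.6% unique reads, fell in Mpb-gata1-1 (log2 -2.87, edgeR adjusted p = 6.20e-05) and was at log2 0.29 in Mpb-gata1-2 (adjusted p = 0.368). MpRLK-Pelle_WAK_LRK10L-11 rose in both (log2 0.80 and 0.93).

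Of 29 tested MAP kinase cascade genes, which relay receptor signals, 4 rose and 4 fell in Mpb-gata1-1 (27.6%) and 10 rose and 3 fell in Mpb-gata1-2 (44.8%), against 46.0% and 46.4% of all genes. Those of smallest p were MpMAPKKK13 at log2 -0.36 and MpMAPKKK2 at 0.28 in Mpb-gata1-1, and MpMAPKKK24 at -0.36 and MpMPK2 at 0.31 in Mpb-gata1-2. Of 4 jasmonate-type pathway genes, MpCYP74N1, an allene oxide synthase gene, rose in Mpb-gata1-2 (log2 0.59, edgeR adjusted p = 0.00165). MpCOI1, the gene of the hormone receptor, differed by log2 -0.18 in Mpb-gata1-1 and MpJAZ, the repressor gene, by -0.22 in Mpb-gata1-2. Both passed by edgeR (adjusted p = 0.0257 and 0.0333), but MpCOI1 did not without BoGa replicate 1 or Mpb-gata1-1 replicate 1 or 3, nor MpJAZ without BoGa replicate 3 or Mpb-gata1-2 replicate 1 or 2.

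Of 27 tested pathogenesis-related genes, typical outputs of plant defence, 19 fell and 4 rose in Mpb-gata1-1 (85.2% against 46.0% of all genes), and 17 fell and 2 rose in Mpb-gata1-2 (70.4% against 46.4%). MpPR5b averaged 140 CPM over BoGa, 67.5 over Mpb-gata1-1 and 149 over Mpb-gata1-2, the order of groups seen for MpWRKY8. MpPR1m fell in both mutants (log2 -1.04 and -1.10, edgeR adjusted p = 3.51e-05 and 2.24e-05), as did MpPR15c, with 86.5% unique reads (log2 -5.02 in each).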

How the data were processed

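Polyadenylated RNA of Marchantia polymorpha thallus was sequenced in 9 libraries, 3 for the wild type and 3 for each mutant allele, grouped and numbered as labelled. The kit was a stranded one, per the labels' protocols. Per the file headers, the authors' tables give counts without normalization, both of all reads of a gene and of its unique reads, and TPM and RPKM values that the authors computed over gene lengths with introns. Not given in the sources used here are the aligner, the genome build, the annotation and the handling of reads that match several genes. Symbols came by locus number from a name table of the MpTak2_v7.1 assembly (17641 of 20574 genes matched, 85.7%), which gave no coordinates here. All 5 chosen genes matched, and 3 of them had a length within 20 bp of the table's.

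Total reads per gene were fitted with edgeR 4.0.16 in R 4.3.3 (filterByExpr by group, 14667 genes tested, TMM scaling, robust quasi-likelihood test on group terms, all 9 libraries). A gene passed at a Benjamini-Hochberg adjusted p under 0.05 over all tested genes. The biological coefficient of variation was 9.08%. CPM values are TMM-scaled. The script was tested on simulated data. Replicates of a group differed by at least 8.23 times the counting noise (chi-square per degree of freedom), so no library was counted as a duplicate. Intervals and floors cover counting error only.

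The chosen genes and all lists were chosen with earlier results of these data known. The gene lists were chosen by symbol, with no named gene found for the oxidative burst, calcium and MLO lists. Named family members were those that passed, with the libraries of the groups not overlapping and a mean log2 CPM not below 0, the 5 largest per contrast (3 between the mutants). In other lists the 2 of smallest p per contrast were named, and for each chosen gene its nearest tested neighbours and the 3 most alike patterns. Alternatives were other scalings and filters, unique reads, DESeq2 1.42.0, limma 3.58.1 on log2 TPM or RPKM with pseudocounts of 1 and 0.1, stricter thresholds, fewer libraries and a replicate block. The V level as a covariate, and family counts without the chosen genes, were chosen after seeing the data. Sequence features were not analysed here.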

Additional observations from a re-analysis of the deposited data

Results flagged for a closer look

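For the chosen MpNBS-LRR21 and for 2 of the other 18 NBS-LRR genes (11.1%), the libraries of the mutants lay on opposite sides of all BoGa libraries, as they did for 4.3% of all tested genes. MpNBS-LRR21 was above BoGa in every Mpb-gata1-1 library and below it in every Mpb-gata1-2 library, and the mutants differed by -2.19 on the log2 scale (Mpb-gata1-2 minus Mpb-gata1-1). This difference was not tested, since the gene was chosen with results of these libraries in view. MpNBS-LRR9 was below BoGa in Mpb-gata1-1 and above it in Mpb-gata1-2, with a difference of 1.59 between the mutants (edgeR adjusted p = 6.52e-07). MpNBS-LRR2 showed the same order at a smaller size, from 107 CPM in BoGa to 99.2 and 119 CPM in the mutants, with a difference of 0.27 (edgeR adjusted p = 0.00428). The V level also lay on opposite sides of BoGa in the mutants, and its part in these differences was not tested. The fit with it as a covariate cannot separate the V level from the group.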

How the results depend on the processing

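Deviations of same-numbered libraries of different groups correlated at -0.426 to 0.447, and those of other pairs at -0.412 to 0.471. Same numbers thus did not stand out, but with 3 libraries a group this check cannot exclude a pairing. With the replicate number as a block, 6273, 6368 and 4065 genes passed for Mpb-gata1-1, for Mpb-gata1-2 and between the mutants, against 6746, 6811 and 4534 without it, and log2 differences of the 5 chosen genes moved by less than their SE. The V level as a covariate, added after the data had been seen, left 1856, 1517 and 347 genes, 2 WRKY and 6 NBS-LRR genes in Mpb-gata1-1, 6 NBS-LRR genes in Mpb-gata1-2, and 0 WRKY and 1 NBS-LRR gene between the mutants. Its log2 values for MpWRKY14, MpWRKY8, MpNBS-LRR1, MpNBS-LRR21 and MpNBS-LRR13 were -1.13, -0.96, 0.63, -0.15 and -1.60 for Mpb-gata1-1, -1.43, 0.19, 1.84, -1.62 and -0.65 for Mpb-gata1-2, and -0.30, 1.15, 1.20, -1.47 and 0.95 between the mutants. Among other named genes that passed without this covariate, the fit turned the sign of MpWRKY3 (0.40), MpWRKY10 (0.14), MpHSP90-1 (-0.33), MpHSP90-2 (-0.047), Mp1g10670 (0.52) and Mp4g22010 (0.29) in Mpb-gata1-1, and of MpWRKY11 (-0.11), MpWRKY12 (-0.16), MpNBS-LRR20 (-0.87), MpHSP90-1 (0.96), MpCYP74N1 (-0.63), Mp1g10670 (-1.43), Mp4g22010 (-0.62) and Mp4g22050 (-0.33) between the mutants. Named genes that had not passed could change sign too, as MpWRKY3 did between the mutants (-2.28), and are not all listed. The V level hardly varied within either mutant, so this fit draws its slope mainly from the 3 BoGa libraries. It therefore cannot separate the V level from the group, and the cause of the changes was not tested. At an adjusted p under 0.01, 4453 genes passed in Mpb-gata1-1, and 2612 genes and 3 WRKY genes between the mutants. With a 2-fold minimum, 1229, 1297 and 1070 genes, 3, 0 and 1 WRKY genes and 4, 5 and 7 NBS-LRR genes passed, or 2, 0 and 1 and 3, 3 and 5 without the chosen genes. All other family counts in this paragraph include the chosen genes, which were counted but are not evidence. On log2(TPM + 1), limma gave MpWRKY14 -1.40, MpWRKY8 -0.75 and MpNBS-LRR13 -1.22 in Mpb-gata1-1, MpWRKY8 0.19, MpNBS-LRR1 1.82 and MpNBS-LRR21 -1.67 in Mpb-gata1-2, and MpNBS-LRR21 -1.97 between the mutants. On log2(TPM + 0.1) it gave MpWRKY8 -0.78, MpNBS-LRR1 0.81 and MpNBS-LRR21 0.32, then MpWRKY8 0.20, MpNBS-LRR1 1.85 and MpNBS-LRR21 -1.85. Both called 5 WRKY genes in Mpb-gata1-2, 3 higher and 2 lower, where edgeR called 1 and 2 and the RPKM, RLE, DESeq2, unfiltered and block settings 2 and 2. On log2(RPKM + 1) it gave MpWRKY14 -1.24, MpWRKY8 -0.73 and MpNBS-LRR13 -1.13, then MpNBS-LRR1 1.70, MpNBS-LRR21 -1.40 and MpNBS-LRR13 -0.70, and between the mutants MpWRKY8 0.86 and MpNBS-LRR21 -1.63. On log2(RPKM + 0.1), MpWRKY8 was -0.81 in Mpb-gata1-1 and MpNBS-LRR21 -1.86 in Mpb-gata1-2. Unique reads gave MpWRKY8 -0.83 and 0.18. Over all genes, log2(TPM + 1) called 4541 higher and 2340 lower for Mpb-gata1-1 and 4198 and 2546 for Mpb-gata1-2, against 3369 and 3377, and 3190 and 3621. WRKY genes passing between the mutants ranged from 4 to 10 when 1 library was left out and were 10 with only the mutants in the fit, against 6. Of 141 values for the other named genes, 62 were counted as unchanged in every setting. For a value that had passed, this meant the same sign and the same side of the threshold. For a value that had not passed, a change of sign was not counted. MpWRKY5 in Mpb-gata1-1, for example, ran from -0.07 to 0.11 when 1 library was left out. Depth limits, among others, MpWRKY6, MpNBS-LRR6, MpPOD159, Mp6g16830 and Mp4g22020, all under 2 CPM.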
